A study of Homo sapiens with 15 samples.

Results

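The genes described here are 10 feedback and target genes of the ERK signalling pathway: the phosphatase genes DUSP4, DUSP5 and DUSP6, the Sprouty genes SPRY1, SPRY2 and SPRY4, the Spred genes SPRED1 and SPRED2, and the ETS factor genes ETV4 and ETV5. They were chosen by symbol, through their Ensembl identifiers, and are 10 of the 60670 genes in the count table. Of them 9 passed the filter on low counts, which kept 18563 genes in all, and SPRY1 did not. RNA was sequenced from HT-1080, a human fibrosarcoma line known to carry an activating mutation of NRAS, in 5 groups of 3 libraries that the labels call biological replicates. Cycling cells had received DMSO, the vehicle, with a time label of 6 h. The other 4 groups were senescent cells, which had expressed a dominant negative mutant of TRF2, the telomere-capping protein, for 6 days, and had then received DMSO or 1 uM GNF-7, a kinase inhibitor, for 6 h or 24 h. All groups come from a single cell line, and neither cycling cells in GNF-7 nor cycling cells at 24 h are among the groups. The labels do not say whether the cycling cells carried the mutant gene, nor what drives it.

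Growth factor receptors activate RAS, which starts the RAF, MEK and ERK kinase cascade. ERK switches on genes that damp its own pathway: DUSP phosphatases remove the activating phosphates from ERK, Sprouty proteins hold back signalling between receptor and RAF, and Spred proteins bring neurofibromin (NF1), which turns RAS off, to the membrane. ETV4 and ETV5, with ETV1, form the PEA3 family of ETS transcription factors, and the repressor Capicua (CIC) keeps several of these genes low until ERK relieves it. In RAS-mutant tumour cells the messages of these genes are widely read as a gauge of ERK activity, but a message level is not a measure of ERK phosphorylation, which these data do not contain.

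Library totals ranged from 25991007 to 32323393 counts, and values are given as CPM, counts per 1000000 after scaling for library composition, with the SD of 3 libraries. The gene of TRF2 itself, TERF2, had 58.2 ± 3.65 CPM in the cycling group and 287 ± 8.17 CPM in the senescent group given DMSO for 6 h, the direction that the labels call for. Of 7 mesenchymal markers, VIM was at 3474 to 4460 CPM by group, but THY1 had 0 counts in every library and S100A4 was at 0.431 to 2.75 CPM. Summed over 4 epithelial markers no library exceeded 0.347 CPM, over 4 leukocyte markers 0.724 CPM and over 3 endothelial markers 2.06 CPM. Mitochondrial genes took a growing part of all counts, from 3.75 to 5.01% in cycling cells and 11.2 to 12.4% in senescent vehicle cells at 6 h up to 22.6 to 24.1% in GNF-7 cells at 24 h. Its part in the differences below was tested only by leaving those genes out of the scaling, which changed 3 calls among these genes, at DUSP4, DUSP5 and SPRY2, each named where its value is given.

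RefSeq promoter entries (GRCh38.p14) were matched for 6 of the 10 genes, DUSP6, SPRY1, SPRY2, SPRY4, SPRED1 and SPRED2. No entry was used for DUSP4, DUSP5, ETV4 and ETV5, so their promoters were not searched, and whether DUSP4 has an entry is not shown here. The Sprouty promoters are shown because the paralogs gave unlike readouts: SPRY4 was called in senescence and in GNF-7 at 24 h, SPRY2 was not called between GNF-7 and vehicle and SPRY1 had almost no counts. The Sprouty bases given lie before the RefSeq start and outside all GENCODE 29 exons, on the strand of the gene. They are at chr5:142324418-142324497 (minus strand) for SPRY4, chr13:80341127-80341376 (minus strand) for SPRY2 and chr4:123396545-123396794 (plus strand) for SPRY1. Those of SPRY4 lie within the span of its gene. Capitals mark the ETS core CCGGAA. The last line gives 30 bases of DUSP6 at chr12:89352507-89352536 (minus strand), shown because they hold the single match to a CIC octamer in these windows, in capitals. Unlike the Sprouty bases, these DUSP6 bases lie within GENCODE 29 exons.
SPRY4: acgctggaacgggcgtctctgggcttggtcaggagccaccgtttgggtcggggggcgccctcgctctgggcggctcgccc
SPRY2: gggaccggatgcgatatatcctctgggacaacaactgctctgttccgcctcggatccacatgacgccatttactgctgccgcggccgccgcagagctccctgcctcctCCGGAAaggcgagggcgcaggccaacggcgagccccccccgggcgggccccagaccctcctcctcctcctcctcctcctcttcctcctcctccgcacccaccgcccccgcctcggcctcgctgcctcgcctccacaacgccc
SPRY1: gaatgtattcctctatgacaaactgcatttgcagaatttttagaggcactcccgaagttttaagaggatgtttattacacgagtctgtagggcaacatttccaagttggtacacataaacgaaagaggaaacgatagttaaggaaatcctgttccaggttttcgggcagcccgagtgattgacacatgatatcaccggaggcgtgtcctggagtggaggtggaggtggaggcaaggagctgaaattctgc
DUSP6: cggagaatgtaTCCATTGAgacgctcgctg

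The 250 bases before each of the 10 RefSeq starts of these 6 genes were searched on both strands. The motifs were the ETS core CCGGAA, the CIC octamers TGAATGAA, TGAATGGA, TCAATGAA and TCAATGGA, the cyclic AMP element TGACGTCA, the AP-1 site TGANTCA and the C/EBP-ATF element TGATGNAA. CCGGAA was found 142 bases before the SPRY2 start shown and 67 bases before another SPRY1 start, and 14.5% of 35116 promoter windows hold it. A CIC octamer, TCAATGGA on the other strand, begins 24 bases before the DUSP6 start, and 3.18% of windows hold any of the 4 octamers. The C/EBP-ATF element was found once, 173 bases before the downstream start of SPRED2, and 3.14% of windows hold it. TGACGTCA (1.65% of windows) and TGANTCA (6.57%) were found in none of the 10 windows, and no motif searched was found before SPRY4 or SPRED1. These matches describe letters in a short window and do not show binding.

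Most of these genes had lower CPM in senescent than in cycling cells. In vehicle at 6 h, 7 of the 9 genes tested were lower and none was higher, where 70% of the 18563 genes tested were called in this comparison, 35.6% higher and 34.4% lower. The median log2 fold change of the 9 was -0.57, against 0.062 for all genes tested. CPM is a share of the counts of a library, and the data hold no measure of RNA per cell. In bulk libraries such a fall can come from less RNA per cell, fewer cells holding it or more RNA of other genes. These cannot be told apart.

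ETV4 fell furthest of the 9 and is given first, with its PEA3 relative ETV5. ETV4 (ENSG00000175832, GRCh38 chromosome 17, 43527844 to 43579620, minus strand) was at 61.7, 64.4 and 63 CPM in the cycling libraries and at 10.4, 14.8 and 11.3 CPM in the senescent ones. Every cycling library was far above every senescent one, and the log2 fold change was -2.37 (SE 0.081, edgeR adjusted p 2e-34), or 5.16-fold. ETV5 (ENSG00000244405, chromosome 3, 186046308 to 186110318, minus strand) was at 113, 118 and 119 CPM in cycling cells and at 59.6, 58.3 and 56 CPM in senescent cells. The groups did not overlap and differed by -1.01 (SE 0.043, edgeR adjusted p 3.43e-30). Exons of ETV4 overlap DHX8 on the other strand and exons of ETV5 overlap DGKG on the same strand, and whether the counting used strand is not stated. DHX8 was at 86 ± 1.63 CPM in cycling and 62.1 ± 4.27 CPM in senescent cells, whereas DGKG was at 12.4 ± 0.733 and 14.9 ± 1.87 CPM.

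SPRY4 (ENSG00000187678, chromosome 5, 142310427 to 142326455, minus strand) was at 45.3, 42.7 and 44.5 CPM in cycling cells and at 18.9, 20.2 and 17.7 CPM in senescent cells. It fell by 1.22 on the log2 scale (SE 0.078, edgeR adjusted p 9.22e-21), with no overlap between the groups. Its paralog SPRY2 (ENSG00000136158, chromosome 13, 80335976 to 80340951, minus strand) was at 44.9, 46 and 46.1 CPM in cycling and 41.5, 39.3 and 40.3 CPM in senescent cells. That small difference, -0.18 (SE 0.056, edgeR adjusted p 0.00424), was not called when libraries were scaled by total counts (-0.046) or over genes with a mean of at least 5 CPM (-0.027). Of these paralogs SPRY4 thus had the fall that held under each alternative tried, and SPRY2 did not.

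Among the other negative regulators, DUSP5 (ENSG00000138166, chromosome 10, 110497838 to 110511544, plus strand), a nuclear phosphatase of ERK, was at 92.5, 99.6 and 94.1 CPM in cycling cells and at 57.8, 61.8 and 59.6 CPM in senescent cells. It fell by 0.68 (SE 0.046, edgeR adjusted p 1.8e-20), and the groups did not overlap. SPRED1 (ENSG00000166068, chromosome 15, 38252326 to 38357249) fell from 80.5 ± 4.62 to 55.1 ± 0.76 CPM (-0.55, SE 0.05) and SPRED2 (ENSG00000198369, chromosome 2, 65310851 to 65432637) from 76.2 ± 4.85 to 51.3 ± 2.61 CPM (-0.57, SE 0.05). DUSP4 (ENSG00000120875, chromosome 8), a nuclear phosphatase of ERK and other MAP kinases, was not lower. It was at 170, 168 and 175 CPM in cycling cells and 181, 184 and 176 CPM in senescent cells, a difference of 0.076 (SE 0.038, edgeR adjusted p 0.0653) that was not called. It was called higher under 6 of the alternatives, among them scaling by total counts (0.21) and scaling without mitochondrial genes (0.094).

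**Figure D1:**
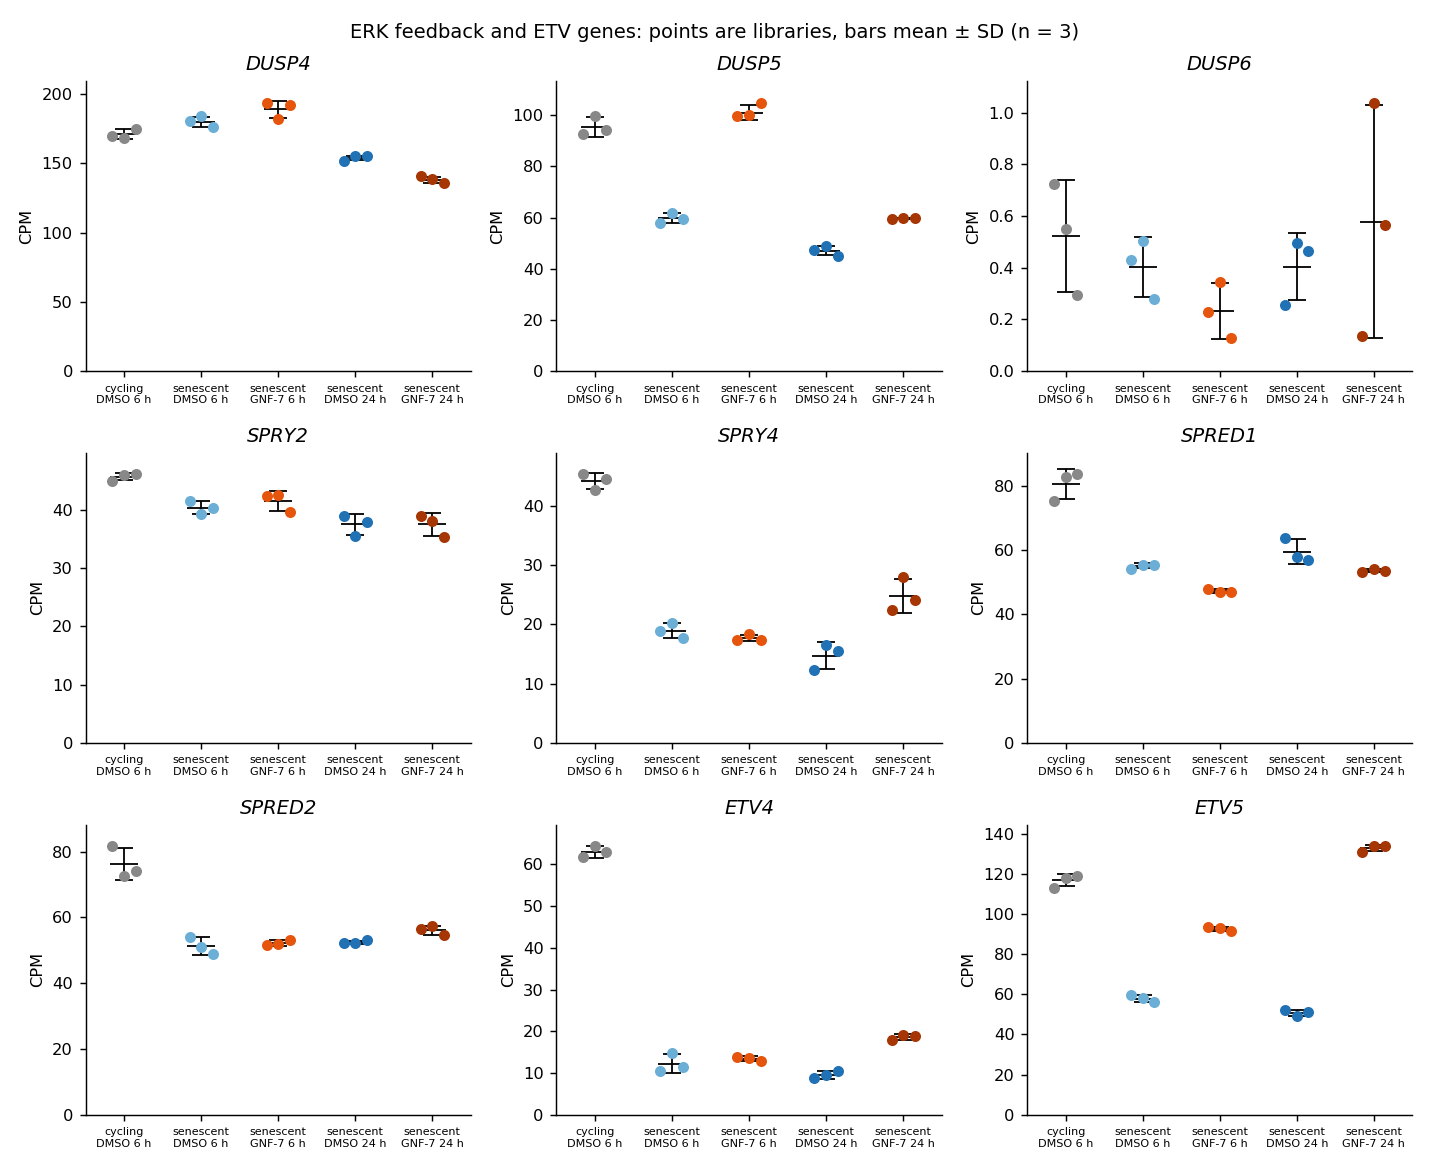
CPM (vertical axis from 0) of 9 genes in each of the 15 libraries (points), by group (horizontal axis), with the mean and SD of each group of 3. ETV4, SPRY4 and ETV5 sit far lower in senescent than in cycling cells in vehicle, and DUSP6 stays near 1 CPM or under it. ETV5 in GNF-7 at 24 h (131 to 134 CPM) lies above the cycling libraries (113 to 119 CPM). These are labelled 6 h, and that difference was not tested.

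Several of these genes were lower again in senescent vehicle cells at 24 h than at 6 h. The labels do not say whether libraries of both times share a culture or a day, so time and culture cannot be told apart. Between 6 h and 24 h in DMSO, 5 of the 9 genes fell in senescent cells and none rose, where 18.5% of all genes tested were called, 9.26% higher and 9.29% lower. With scaling by total counts 12.5% of the calls over all genes were higher, against 49.9% as scaled here, and the median of all genes moved from 0.0088 to -0.10. DUSP5 went from 59.7 ± 1.98 to 47 ± 1.81 CPM (-0.34, SE 0.048, edgeR adjusted p 1.2e-07) and DUSP4 from 180 ± 3.85 to 154 ± 1.51 CPM (-0.23, SE 0.038). SPRY4 (-0.37, SE 0.086), ETV4 (-0.36, SE 0.094) and ETV5 (-0.19, SE 0.046) were also lower. The SPRY4 call was lost without vehicle 24 h replicate 1, the lowest of its group (-0.24, edgeR adjusted p 0.0566), and the ETV4 call without senescent vehicle 6 h replicate 2, the highest of its group (-0.19, edgeR adjusted p 0.198). SPRY2, SPRED1 and SPRED2 were not called (-0.11, 0.11 and 0.03).

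GNF-7 raised DUSP5 and ETV5 within 6 h. At that time 2 of the 9 genes were higher than in vehicle and 1, SPRED1, was lower, where 39.3% of all genes tested were called, 17.9% higher and 21.4% lower. DUSP5 was at 99.6, 100 and 105 CPM in GNF-7 against 57.8, 61.8 and 59.6 CPM in vehicle. Each treated library was above each vehicle library, and the log2 fold change was 0.76 (SE 0.046, edgeR adjusted p 4.47e-22). ETV5 was at 93.4, 93.3 and 91.6 CPM against 59.6, 58.3 and 56 CPM, a rise of 0.68 (SE 0.044, edgeR adjusted p 1.02e-20) without overlap. The overlapping gene DGKG was at 14.2 ± 0.487 and 14.9 ± 1.87 CPM and was not called (-0.066).

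SPRED1 fell from 54.2, 55.5 and 55.5 CPM to 47.9, 46.8 and 46.8 CPM (-0.22, SE 0.051, edgeR adjusted p 0.000298), so the groups did not overlap. ETV4 and SPRY4 had not moved beyond error at 6 h. ETV4 was at 13.8, 13.6 and 12.8 CPM in GNF-7, within the range of the vehicle libraries (0.13, SE 0.089, edgeR adjusted p 0.251). It was called without senescent vehicle 6 h replicate 2 (0.30, edgeR adjusted p 0.00812) and was at 0.03 without replicate 1 of that group, the lowest. SPRY4 was at 17.3, 18.3 and 17.4 CPM (-0.10, SE 0.083, edgeR adjusted p 0.361). DUSP4 (0.071), SPRY2 (0.039) and SPRED2 (0.025) were not called either, although DUSP4 was called over genes with a mean of at least 5 CPM (0.12) and without GNF-7 6 h replicate 2 (0.11). This comparison shares its vehicle libraries with that between senescent and cycling cells, so opposite signs in them are not independent.

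After 24 h of GNF-7 both PEA3 genes and SPRY4 were higher than in vehicle. Of the 9 genes 4 rose (ETV5, ETV4, SPRY4 and DUSP5) and 2 fell (DUSP4 and SPRED1), where 58.9% of all genes tested were called, 29.3% higher and 29.7% lower. The median of the 9 was 0.35, against 0.038 for all genes tested. The libraries of this comparison are not those of the comparison between senescent and cycling cells. Its vehicle libraries also enter the comparison between 24 h and 6 h in vehicle, so opposite signs in these are not independent. Other features moved with this treatment: all 6 tested mesenchymal markers fell, their summed level being 4592 to 4891 CPM in GNF-7 and 6349 to 6958 CPM in vehicle. TERF2 fell from 220 ± 7.26 to 132 ± 5.38 CPM (-0.73). The part of either in the differences below was not tested.

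ETV5 was at 131, 134 and 134 CPM in GNF-7 and at 52.1, 49.3 and 51.1 CPM in vehicle at 24 h. The groups were far apart, and ETV5 rose 2.62-fold, or by 1.39 in log2 (SE 0.044, edgeR adjusted p 1.23e-36). DGKG rose as well, from 14.5 ± 1.66 to 16.8 ± 1.01 CPM (0.22). ETV4 was at 17.8, 19.2 and 18.8 CPM against 8.71, 9.38 and 10.5 CPM, a rise of 0.97 (SE 0.09, edgeR adjusted p 2.54e-14), while the overlapping DHX8 fell from 53.4 ± 2.49 to 34.9 ± 1.26 CPM. SPRY4 was at 22.4, 28 and 24.1 CPM against 12.2, 16.5 and 15.5 CPM. All treated libraries of SPRY4 were above all vehicle ones (0.76, SE 0.084, edgeR adjusted p 1.45e-11), with a wider spread than for ETV5.

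DUSP5 was at 59.6, 59.7 and 60 CPM in GNF-7 and at 47.3, 48.7 and 45.1 CPM in vehicle (0.35, SE 0.048, edgeR adjusted p 6.98e-09). It was thus higher than its vehicle at both times, but at 24 h only as high as vehicle had been at 6 h. DUSP4 was at 141, 139 and 136 CPM against 152, 155 and 155 CPM (-0.16, SE 0.038, edgeR adjusted p 0.000317). SPRED1 was at 53.3, 54.1 and 53.6 CPM against 63.9, 57.9 and 56.8 CPM (-0.15, SE 0.051, edgeR adjusted p 0.00874). Both falls were small and neither was called over genes with a mean of at least 5 CPM (-0.056 and -0.05), and that of SPRED1 was also lost without vehicle 24 h replicate 1 (-0.10). SPRY2 was at 37.5 ± 1.94 CPM in GNF-7 and 37.5 ± 1.78 CPM in vehicle. SPRED2 was at 56.1 ± 1.44 CPM against 52.4 ± 0.473 CPM and was not called (0.10, edgeR adjusted p 0.0922), except with total counts (0.13) or over genes with a mean of at least 5 CPM (0.20).

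**Figure D2:**
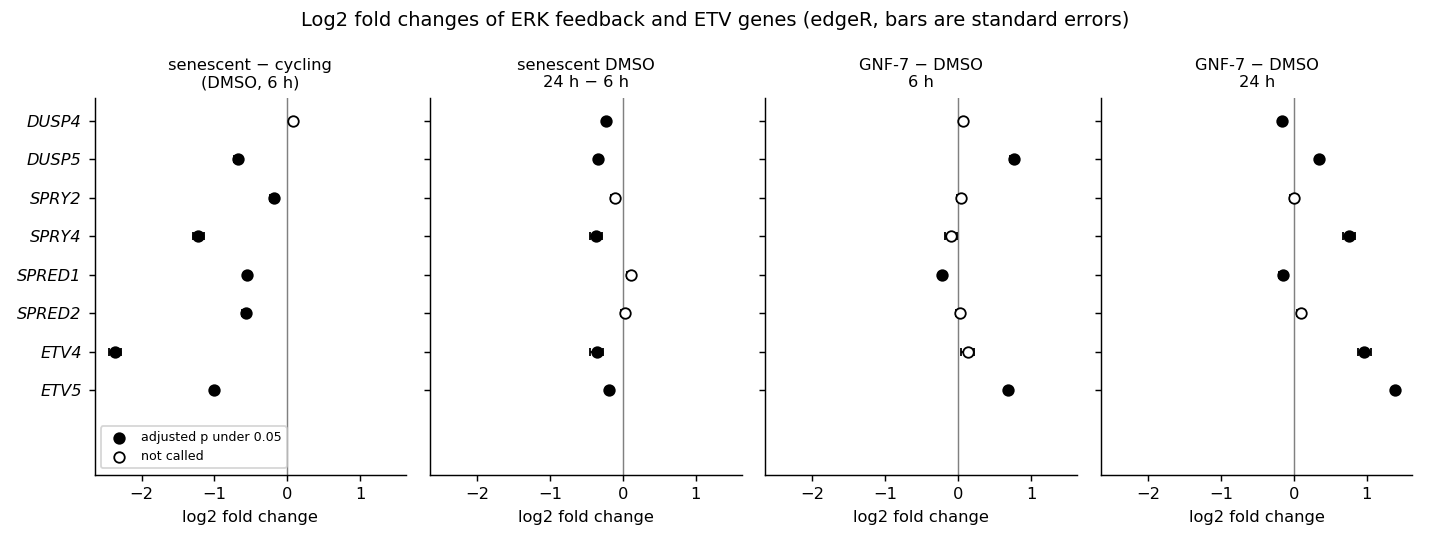
Log2 fold change (horizontal axis) of 8 genes (rows) in 4 comparisons, with standard errors as bars. Filled points passed an adjusted p of 0.05. The leftmost panel has 7 filled points, all below 0, and in the panel for GNF-7 at 24 h ETV5 (1.39), ETV4 (0.97), SPRY4 (0.76) and DUSP5 (0.35) lie above 0.

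For 5 of the 9 genes the response to GNF-7 was not the same at 24 h as at 6 h, by a test of the difference itself, 3 upward and 2 downward, where 30.8% of all genes tested were called, 12.8% upward and 18% downward. SPRY4 (0.86, SE 0.12, edgeR adjusted p 3.07e-08), ETV4 (0.84, SE 0.13, edgeR adjusted p 2.8e-07) and ETV5 (0.71, SE 0.062, edgeR adjusted p 6.94e-15) had a larger log2 fold change at 24 h. DUSP5 (-0.42, SE 0.067, edgeR adjusted p 6.35e-07) had a smaller one, and DUSP4 (-0.23, SE 0.053, edgeR adjusted p 0.000499) turned from no call to a fall. These 5 were called under each alternative tried. For SPRY2, SPRED1 and SPRED2 no difference in effect was called (-0.039, 0.072 and 0.074, with SE of 0.081, 0.072 and 0.072).

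**Figure D3:**
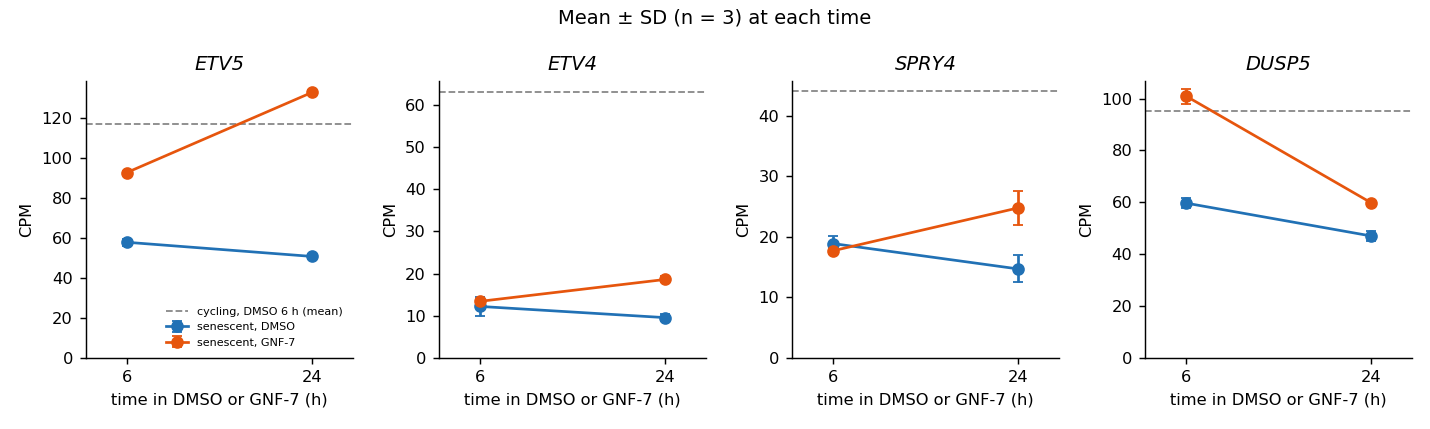
Mean CPM (vertical axis from 0) with SD of 3 libraries at 6 h and 24 h (horizontal axis) in senescent cells in DMSO (blue) or GNF-7 (orange), for ETV5, ETV4, SPRY4 and DUSP5, with the mean of cycling cells in DMSO at 6 h as a dashed line. The lines part over time for ETV5, ETV4 and SPRY4, and draw together for DUSP5, which is at 101 CPM in GNF-7 at 6 h and 59.8 CPM at 24 h.

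Against cycling cells of the same labelled time, senescent cells in GNF-7 at 6 h were lower for 6 of the 9 genes and higher for 1, where 75.7% of all genes tested were called, 39.6% higher and 36.1% lower. ETV4 (-2.24, SE 0.08, edgeR adjusted p 1.27e-33), SPRY4 (-1.32, SE 0.079), SPRED1 (-0.77, SE 0.05) and SPRED2 (-0.54, SE 0.05) stayed well under the cycling level. ETV5 was closer to it (-0.33, SE 0.042), at 92.8 ± 0.994 against 117 ± 3.01 CPM. DUSP5 was at 101 ± 2.87 against 95.4 ± 3.76 CPM and was not called (0.088, SE 0.045, edgeR adjusted p 0.0672), but was called higher under 7 alternatives, among them scaling without mitochondrial genes (0.11) and over genes with a mean of at least 5 CPM (0.29). DUSP4 was higher (0.15, SE 0.038). SPRY2 was lower by a small amount (-0.14, SE 0.056, edgeR adjusted p 0.0225), a call lost without mitochondrial genes in the scaling (-0.12), when no other groups were fitted (-0.10) and without GNF-7 6 h replicate 3 (-0.11), and turned over by total counts (0.0062) and the 5 CPM filter (0.065).

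The order of the 5 groups differed from gene to gene. For ETV4 it ran from cycling cells (63 CPM) through GNF-7 24 h (18.6), GNF-7 6 h (13.4) and senescent vehicle 6 h (12.2) to vehicle 24 h (9.54), and the last 3 neighbours overlapped in pairs. SPRY4 began and ended with the same groups, from 44.2 to 14.7 CPM, and only GNF-7 6 h and vehicle 6 h overlapped. ETV5 alone of the 8 well-counted genes was highest in GNF-7 24 h (133 CPM), followed by cycling (117), GNF-7 6 h (92.8), vehicle 6 h (57.9) and vehicle 24 h (50.8), with no overlap between any neighbours. No test set GNF-7 24 h against the cycling cells, which are labelled 6 h. DUSP5 had its upper pair in GNF-7 6 h (101) and cycling cells (95.4), which overlapped, and its middle pair in GNF-7 24 h (59.8) and vehicle 6 h (59.7), which also overlapped. SPRED1 and SPRED2 were highest in cycling cells. Among senescent groups SPRED1 ran from 47.2 to 59.5 CPM, with no overlap between any neighbours. SPRED2 ran from 51.3 to 56.1 CPM there, and some neighbours overlapped. The highest group was 6.61 times the lowest for ETV4, 3 times for SPRY4, 2.62 times for ETV5 and 2.16 times for DUSP5, but 1.37 times for DUSP4 and 1.22 times for SPRY2.

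Per kilobase of merged GENCODE 29 exons, a scale on which genes can be set side by side, DUSP5 stood highest in cycling cells at 36.5 CPM per kilobase. DUSP4 followed at 23.6, ETV5 at 20.1, ETV4 at 17.5, SPRY2 at 15, SPRED2 at 14.8, SPRED1 at 9.75 and SPRY4 at 6.73. In GNF-7 at 24 h ETV5 and DUSP5 were level at 22.9 CPM per kilobase, and ETV4 was at 5.16. ETV5 thus led ETV4 by a margin that cycling cells did not have. It also led ETV4 in senescent vehicle cells, at 9.99 against 3.38 at 6 h and 8.76 against 2.64 at 24 h. On this scale ETV1, the third PEA3 gene, was at 2.54 in cycling cells and 1.43 in GNF-7 at 24 h.

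DUSP6 and SPRY1, both standard readouts of ERK in other cells, were barely or not expressed here. DUSP6 (ENSG00000139318, chromosome 12, 89347232 to 89353271, minus strand), a cytoplasmic phosphatase of ERK, had 4 to 32 counts per library, with group means from 0.232 to 0.579 CPM. The groups overlapped throughout, no comparison called it, and the SE of its log2 fold changes ranged from 0.53 to 0.79, against 0.037 to 0.13 for the 8 other genes tested. A call appeared in GNF-7 6 h against cycling cells without cycling replicate 3 (-1.45, edgeR adjusted p 0.0322) or when replicate 2 of GNF-7 6 h was left out (-1.52, edgeR adjusted p 0.044). Its exons also overlap AC024909.2 on the other strand. SPRY1 (ENSG00000164056, chromosome 4, 123396795 to 123403760, plus strand) had 0 counts in 12 libraries and at most 2 in any, where a count of 0 allows up to 3 counts at the 95% level, and this limit covers counting error only.

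Other genes of the pathway were taken in lists chosen by symbol, and their counts are to be read against all genes tested. In senescence 35.6% of all genes were called higher and 34.4% lower (median 0.062), and in GNF-7 at 24 h 29.3% higher and 29.7% lower (median 0.038). Of 15 tested genes of the wider ERK output list, 13 were called in senescence, 7 higher and 6 lower (median 0.11), and 10 in GNF-7 at 24 h, 1 higher and 9 lower (median -0.19). The gene that rose at 24 h was MAFF, which encodes a small MAF factor, at 1.05 (SE 0.086), after a fall of 1.22 in senescence. The largest fall of the list at 24 h was that of FOS, from 16.8 ± 6.99 to 1.82 ± 0.425 CPM (-3.21, SE 0.59, edgeR adjusted p 0.00067). EGR1 came next (-1.32, SE 0.35). FOS and EGR1 are named here after their values were seen. CCND1, the gene of cyclin D1, went from 886 ± 1.93 to 445 ± 13.3 CPM at 24 h (-0.99, SE 0.033, edgeR adjusted p 2.38e-35), HBEGF, an EGF receptor ligand, from 125 ± 4.28 to 55.3 ± 1.89 CPM (-1.18), and EPHA2, a receptor tyrosine kinase, from 297 ± 6.79 to 187 ± 4.62 CPM (-0.67). PHLDA1, often scored beside DUSP and SPRY genes, rose in senescence (0.37) and fell in GNF-7 at 24 h (-0.50). In senescence the smallest p in this list belonged to EPHA2 (-0.71), IER3 (0.72) and FOSL1 (-0.64).

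Of 6 tested further MAP kinase phosphatases, 3 rose and 1 fell in senescence (median 0.28), where 70% of all genes were called. In GNF-7 at 24 h, where 58.9% of all genes were called, 1 rose and 4 fell (median -0.34). DUSP1, which acts on stress-activated MAP kinases, rose in senescence (0.79) and again in GNF-7 at 6 h (1.28) and 24 h (1.11), from 25.2 ± 2.45 to 54.6 ± 2.25 CPM at the later time. DUSP7, a close relative of DUSP6, was at 57.4 ± 0.111 CPM in cycling cells and fell in senescence (-0.95) and in GNF-7 at 24 h (-0.49). DUSP10 rose in senescence (0.61) and fell in GNF-7 at 24 h (-0.75). SPRED3 ran opposite to SPRED1 and SPRED2 in senescence, rising by 0.65 from 34.2 ± 2.27 to 53.5 ± 2.27 CPM, and fell in GNF-7 at 6 h (-0.73) and 24 h (-0.31). SPRY3 rose in senescence (1.72) from 0.706 ± 0.322 CPM and was not called in GNF-7 at 24 h (0.028).

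In the list of 7 further feedback genes, which includes SPRY3 and SPRED3, 3 were higher and 4 lower in senescence (median -0.59), against 70% of all genes called. In GNF-7 at 24 h none was higher and 3 were lower (median -0.036), against 58.9% of all genes called. ERRFI1, an inhibitor of the EGF receptor, fell from 524 ± 10.1 to 206 ± 2.48 CPM in senescence (-1.35, SE 0.036, edgeR adjusted p 9.52e-41) and further in GNF-7 at 24 h (-0.57). LRIG1, another receptor inhibitor, was lower in both (-0.88 and -0.36), and CBLB, a ubiquitin ligase, rose in senescence (1.77).

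Of 10 ETS factors and CIC-related genes, 2 were higher and 7 lower in senescence (median -0.49), against 35.6% and 34.4% of all genes. In GNF-7 at 24 h 3 were higher and 5 lower (median -0.13), against 29.3% and 29.7% of all genes. ETV1 followed ETV4 and SPRY4 in direction: it fell in senescence (-0.88, SE 0.087), was not called in GNF-7 at 6 h (-0.06) and rose at 24 h (0.46, SE 0.094, edgeR adjusted p 2.4e-05). CIC, the repressor, rose in senescence from 120 ± 6.76 to 160 ± 1.28 CPM (0.42, SE 0.043) and fell in GNF-7 at 6 h (-0.32) and 24 h (-0.23, SE 0.043, edgeR adjusted p 4.45e-06). Its partner ATXN1 rose in GNF-7 at 24 h (0.58). ETS1 and ELK3 were lower in senescence (-0.53 and -0.80), and ETS1 and ERF, a repressor of the family, in GNF-7 at 24 h (-0.80 and -0.54). ETS2 fell in senescence (-0.73), rose in GNF-7 at 6 h (0.87) and was lower at 24 h (-0.31).

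Of 29 genes of the cascade itself, 8 were higher and 17 lower in senescence (median -0.16), against 35.6% and 34.4% of all genes. In GNF-7 at 24 h 7 were higher and 15 lower (median -0.13), against 29.3% and 29.7% of all genes. The largest log2 fold change of the list in senescence was that of MRAS, a RAS relative named here after its values were seen, which rose by 1.88. NRAS, the mutated oncogene of this line, fell in senescence from 133 ± 4.68 to 88.7 ± 1.14 CPM (-0.58) and in GNF-7 at 6 h (-0.31) and 24 h (-0.33). RASA1, a RAS inhibitor, was lower in senescence (-0.85) and in GNF-7 at 24 h (-0.54), as was PTPN11, the gene of the phosphatase SHP2 (-0.73 and -0.087). RRAS rose in senescence (1.02) and SHC1, an adaptor, fell in GNF-7 at 24 h (-0.66), whereas RPS6KA2, a kinase that ERK activates, rose there by 1.70 from 8.23 ± 0.77 CPM. Of 7 tested FGF and EGF receptors, 2 rose and 2 fell in senescence, where 70% of all genes were called, and 3 rose and 3 fell in GNF-7 at 24 h, where 58.9% were. EGFR (-0.55), ERBB2 (0.54) and FGFR1 (0.16) had the smallest p in senescence, and all 3 were lower in GNF-7 at 24 h (-0.18, -0.83 and -0.46).

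**Figure D4:**
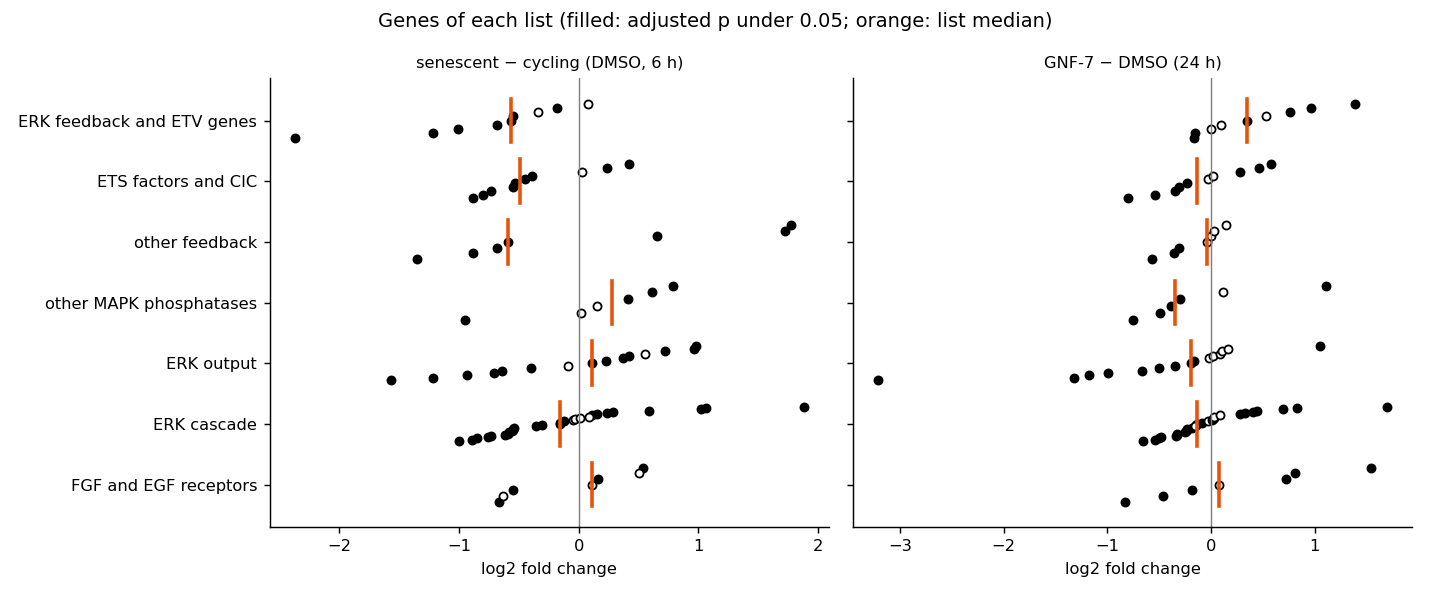
Log2 fold change (horizontal axis) of the tested genes of each list (rows, points ordered by value within a row) in senescence, left, and in GNF-7 at 24 h, right, with filled points called and the median as an orange bar. In GNF-7 at 24 h the ERK feedback and ETV genes have a median of 0.35, and the wider ERK output list one of -0.19.

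The genes whose pattern was most like that of ETV5, among 11209 others with a symbol and a mean of at least 5 CPM, were MGLL (Pearson r 0.985), SHMT2 (0.985) and XPOT (0.983), by log2 CPM over the 15 libraries. SHMT2, a mitochondrial enzyme of serine and one-carbon metabolism, had a mean of 270 CPM in cycling cells. In senescent cells it was at 107 CPM with DMSO and 221 CPM with GNF-7 at 6 h, and at 112 and 309 CPM at 24 h. For SPRY4 they were TSHZ1 (0.972), ZC3H14 (0.970) and ACD (0.966), and TSHZ1 was at 20 CPM in cycling cells, 9.07 CPM in vehicle at 24 h and 13.1 CPM in GNF-7 at 24 h. For DUSP6 no value is read, since its counts are too few. These r values describe likeness over libraries that fall into 5 groups, and carry no test.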

How the data were processed

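Per the file headers, the deposited values are raw read counts by Ensembl gene, in a single table with 15 libraries. Per the submitters' processing notes, bcl2fastq 2.20.0.422, STAR 2.7.9a, featureCounts 1.5.1 and GRCh38 were used; the annotation release and strand setting are not given in the sources used here. A broken entry of 3 lines was left out, and 60400 of 60670 identifiers had a symbol. Groups came from titles. Counts were fitted over all 15 libraries with the quasi-likelihood test of edgeR 4.0.16 (R 4.3.3, filterByExpr, TMM, 1 mean per group), and calls were made at a Benjamini-Hochberg adjusted p of 0.05 over all 18563 genes kept. P-values set a difference between groups against the spread of the 3 libraries within groups, estimated jointly over all 5 groups. SE is the log2 fold change over the square root of F. In data simulated for GNF-7 against vehicle at 24 h, 191 of 200 genes changed 2-fold were recovered, with 5 false calls. The other genes were simulated without change, and the changed genes were drawn from those with higher CPM than DUSP6. False calls where most genes change, and detection at counts as low as those of DUSP6, were not tested. Pairs of libraries in a group differed by more than counting noise. The members and lists were chosen with earlier results of these data known. Named were all members, ETV1, SPRY3, SPRED3, DUSP7, CIC, PHLDA1, EPHA2, CCND1 and NRAS. Also named were the 3 genes of each list with the smallest p in senescence and in GNF-7 at 24 h. For likeness the 3 genes with the highest r were named. Further values of these genes, MAFF, FOS, EGR1, MRAS and the overlapping genes DGKG and DHX8 were added after seeing them. Alternatives were RLE or total-count scaling, scaling without mitochondrial genes, 2 other filters, DESeq2 1.42.0, limma 3.58.1 voom, a fit without the other groups, a replicate block and leaving out each library.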

Additional observations from a re-analysis of the deposited data

Results flagged for a closer look

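For 5 genes the response to GNF-7 was not the same at 24 h as at 6 h, by the interaction test over all genes (edgeR). The log2 fold change was larger at 24 h by 0.86 for SPRY4, 0.84 for ETV4 and 0.71 for ETV5, and lower by -0.42 for DUSP5 and -0.23 for DUSP4. Groups of 3 libraries were too small for the search for single outlying libraries.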

How the results depend on the processing

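Of 54 comparisons of a single gene, 33 were called, and 27 of these calls held under every alternative. The exceptions are SPRY2 in both comparisons with cycling cells, DUSP4 and SPRED1 in GNF-7 at 24 h, and SPRY4 and ETV4 between times in vehicle. Total counts moved the median of all genes in senescence from 0.062 to 0.19. Counts of called genes stayed within 1.5 times their main value under each alternative. Signs turned for SPRY2, SPRED2 and DUSP6. SPRY2 in GNF-7 at 24 h was at -0.005 with RLE and with DESeq2, -0.0097 without mitochondrial genes, -0.023 with no filter, -0.00027 with voom and from -0.042 to 0.039 over the fits that left out a library; its difference between times was at 0.0096 with the 5 CPM filter and from -0.079 to 0.0018 over those fits. SPRY2 in GNF-7 6 h against cycling cells, a called value of -0.14, was at 0.0062 with total counts and 0.065 with the 5 CPM filter, and SPRED2 between times in vehicle at -0.08 with total counts. Leaving out a library gave SPRED2 -0.0027 to 0.07 between times and -0.012 to 0.061 in GNF-7 at 6 h, and DUSP6 -0.22 to 0.24 between times and -0.20 to 0.99 in GNF-7 at 24 h, the lowest without GNF-7 24 h replicate 2 and against 0.53 with all libraries. The replicate block changed no call of the 10 genes. It gave 13032 in place of 12999 genes called in senescence and 7481 in place of 7286 in GNF-7 at 6 h. Between times in vehicle it gave 3711 in place of 3443. Deviations of same-numbered libraries correlated at -0.0369 to 0.0579, and those of other pairs at -0.0686 to 0.0395. Of 15 libraries, 8 correlated best with their own number. These values do not settle whether a replicate number marks a shared culture or day. Counts of DUSP6 (at most 32) limit what can be detected for it.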
